A study of Mus musculus with 20 samples.

Results

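Collagen genes were followed as a family across mouse ear pinnae injected with 1 of 3 cytokines or with PBS. The members are the genes of the deposited table whose symbol is Col, a number, a and a number with nothing after it, which gave 41 of 16669 genes. Of these, 40 reached a log2 CPM (CPM, reads of a gene scaled to the depth of the library) of 0 in 5 or more of the 20 libraries and were tested. Col26a1, between -2.68 and 0.40 log2 CPM in the 20 libraries, was the member not tested. The symbols Col6a4, Col6a5 and Col19a1, which the same rule matches in the annotation, were not analysed here. The members were put into 9 structural classes, with 8 fibrillar, 8 basement membrane, 7 cartilage, 5 fibril-associated, 4 beaded filament, 3 transmembrane, 2 anchoring, 2 short-chain network and 2 other genes.

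Collagens are triple helices of chains rich in glycine and proline. Fibrillar collagens I, III and V, made mainly by fibroblasts, form the banded fibrils of dermis, and collagens II, IX, X and XI belong to cartilage, which stiffens the pinna. Collagen IV forms the sheet of basement membranes, collagen VII forms anchoring fibrils under the epidermis, and collagen XVII is a transmembrane protein of the hemidesmosomes of basal keratinocytes. The type 2 cytokines IL-4 and IL-13 share a receptor chain, and IL-31 is a cytokine linked to itch.

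Each group held 5 libraries of total RNA from ear pinnae. The IL-4, IL-13 and IL-31 groups had each received 10 µl of that cytokine at 0.1 µg/µl in PBS by intradermal injection into the right ear, and the PBS group had PBS alone in the right ear. The sources used here do not give strain, sex, age, genotype or time to harvest. Nor do they say that samples came from separate animals, and p-values then measure only how far these samples spread, which may be technical. Whole pinna was used, so in these values fewer cells of a type and less RNA per cell cannot be told apart.

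Library sizes recovered from the steps between low values were 6.11 to 13.94 M reads (M, mega) in IL-4, 12.88 to 13.75 M in IL-13, 13.20 to 23.73 M in IL-31 and 9.10 to 12.95 M in PBS. A count of 3 reads was worth 0.126 to 0.491 CPM, below which a difference was not detectable at this depth. Some libraries stood apart. The score of 10 suprabasal keratinocyte genes (mean of gene-centred log2 CPM) was -1.53, -1.89 and -2.25 in PBS libraries 1, 2 and 3, while the other libraries lay at -0.50 or higher. The score of 9 neutrophil genes was above 2 in PBS libraries 1, 3 and 5, IL-13 library 1 and IL-31 library 3, and lowest in IL-31 library 2 at -2.23. PBS library 5 and IL-31 library 4 lay at opposite ends for many collagens, as given below. Calls of collagen genes are given below with and without PBS libraries 1, 2 and 3.

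Per length, dermal and epidermal collagens led. Taken per kilobase of the principal transcript, Col17a1 had 518 ± 12.4 CPM in IL-4, 481 ± 46.2 in IL-13, 458 ± 33.4 in IL-31 and 414 ± 39 in PBS (SD, n = 5). Col1a2, the second chain of collagen I, had 246 ± 51.4 CPM in IL-4, 244 ± 59.9 in IL-13, 312 ± 76.8 in IL-31 and 399.7 ± 158 in PBS (SD, n = 5). Col3a1, the chain of collagen III, had 196 ± 55 CPM in IL-4, 209.6 ± 59 in IL-13, 299.5 ± 84.6 in IL-31 and 367 ± 216 in PBS (SD, n = 5), and Col1a1, the main chain of collagen I, had 172 ± 34.5 CPM in IL-4, 170.2 ± 34.8 in IL-13, 206 ± 58.2 in IL-31 and 291 ± 113 in PBS (SD, n = 5). In PBS these 4 genes did not differ beyond their spread (SD), and their order changes with the transcript length used, because the summed exons of Col1a2 come to 12426 bases and its principal transcript to 5348. A gap separated them from Col6a1, which forms beaded microfibrils with Col6a2 and had 67.4 ± 13.3 CPM in IL-4, 74.9 ± 13.2 in IL-13, 69.9 ± 13.4 in IL-31 and 81.8 ± 18.8 in PBS (SD, n = 5). Among type IV chains, Col4a1 and Col4a2 were highest in PBS, at 14.27 ± 2.82 and 12.32 ± 3.07 CPM per kilobase. Col4a6 and Col4a5 followed at 7.58 ± 1.82 and 4.86 ± 1.03, and Col4a4 and Col4a3 were lowest at 0.723 ± 0.250 and 0.606 ± 0.241. Col2a1, the main collagen of hyaline cartilage, reached only 2.19 ± 0.68 CPM per kilobase in PBS, against 30.2 ± 10.7 for Col9a3. All 41 genes together made up a median of 0.951% of CPM in IL-4, 0.938% in IL-13, 1.02% in IL-31 and 1.26% in PBS, with ranges of 0.808 to 1.05%, 0.659 to 0.974%, 0.686 to 1.06% and 0.879 to 1.45%, so that each cytokine group overlapped PBS.

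**Figure D1:**
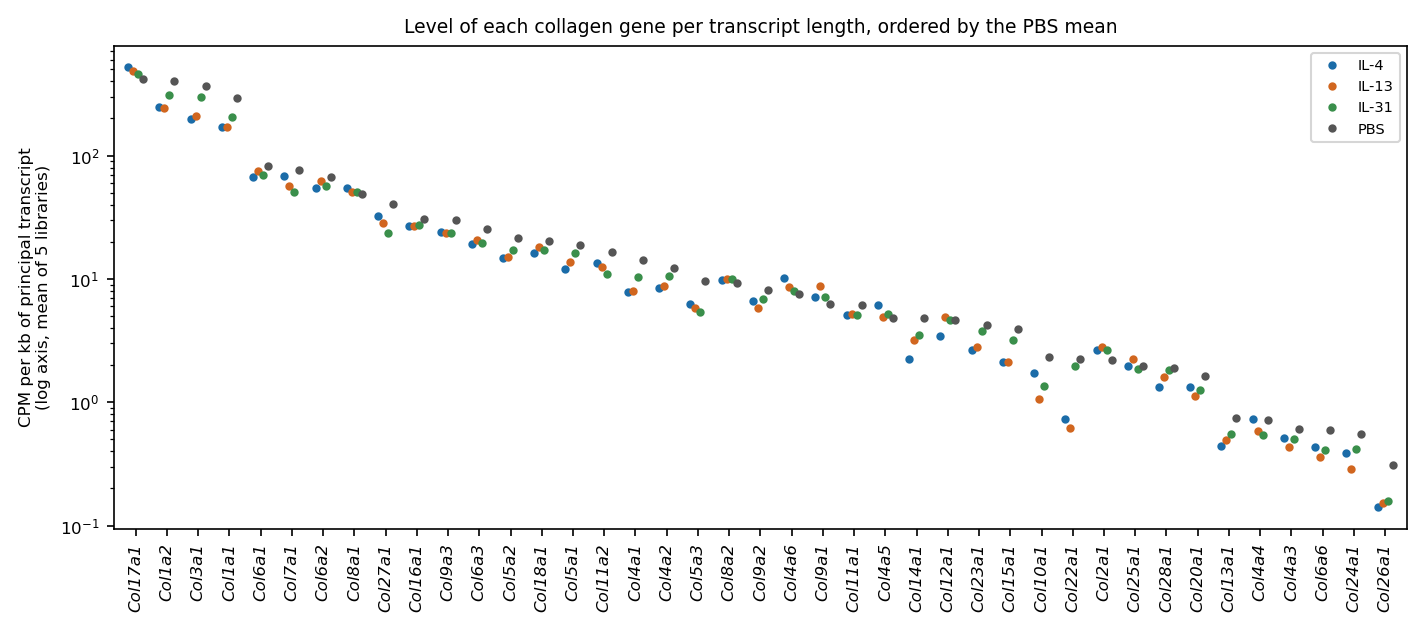
Level of each of the 41 collagen genes in CPM per kilobase of its principal transcript (log axis), as the mean of 5 libraries in IL-4, IL-13, IL-31 and PBS, ordered by the PBS mean. Col17a1, Col1a2, Col3a1 and Col1a1 stand above the rest, and Col26a1 is lowest at 0.312 CPM per kilobase in PBS.

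Collagen transcripts fell more often than they rose. Against PBS, limma called 7 of 40 members in IL-4 (1 higher, Col17a1, and 6 lower, Col4a1, Col5a1, Col5a3, Col15a1, Col22a1 and Col23a1). It called 7 of 40 in IL-13 (all 7 lower, Col1a1, Col4a1, Col5a3, Col10a1, Col15a1, Col22a1 and Col23a1) and 1 of 40 in IL-31 (Col5a3, lower). Over all 16461 genes tested the shares called were 17.8% in IL-4 (8.22% higher and 9.63% lower), 19.7% in IL-13 (9.94% higher and 9.8% lower) and 6.38% in IL-31 (5.18% higher and 1.2% lower). The members' share called in IL-4 and IL-13 was thus near that of all genes. The split of the 7 calls leaned lower in each, mostly on the same genes. In IL-4 this split depended on scaling, and median re-centring gave 3 higher and 4 lower. The median log2 fold change over the 40 members was -0.30 in IL-4, -0.37 in IL-13 and -0.24 in IL-31, beside -0.02, -0.03 and -0.04 over all genes. At an unadjusted p under 0.05 limma gave 18, 13 and 5 members, beside 31.5, 33.7 and 23.8% of all genes. The fold change was below 0 for 31, 31 and 32 members in that order, and for 52, 53.3 and 55.8% of all genes. The 3 comparisons use the same 5 PBS libraries, so their likeness is not independent.

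Single libraries moved these counts, and the share of all genes called moved in the same fits. In IL-4, 3 members were called without PBS library 2 (11.5% of all genes) and 12 without PBS library 1 (15.3%). There were 4 without IL-4 library 2, 4 or 5, where 14.4, 12.4 and 11.9% of all genes were called. In IL-13, 11 were called without PBS library 1 (16.2% of all genes) and 12 without PBS library 5 (28.6%). In IL-31, none was called without IL-31 library 3, 4 or 5 or PBS library 1, 2 or 3, where at most 2.46% of all genes were called, while 2 were called without PBS library 4 (11.5%) and 6 without PBS library 5 (18.4%). Leaving out PBS libraries 1, 2 and 3 together gave 8 calls in IL-4 (2 of them among the 7), 3 in IL-13 (1 among the 7) and 0 in IL-31. All-gene shares called in those fits were 7.29%, 2.34% and 0%. With the suprabasal keratinocyte score as a covariate, 10 members were called in IL-4, of which Col4a1, Col5a1 and Col17a1 were among the 7, and 0 in IL-13 and in IL-31. The all-gene shares were then 11.7%, 0.0425% and 0%, so every collagen call in IL-13 and IL-31, and the IL-4 calls of Col5a3, Col15a1, Col22a1 and Col23a1, ended with that covariate.

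**Figure D2:**
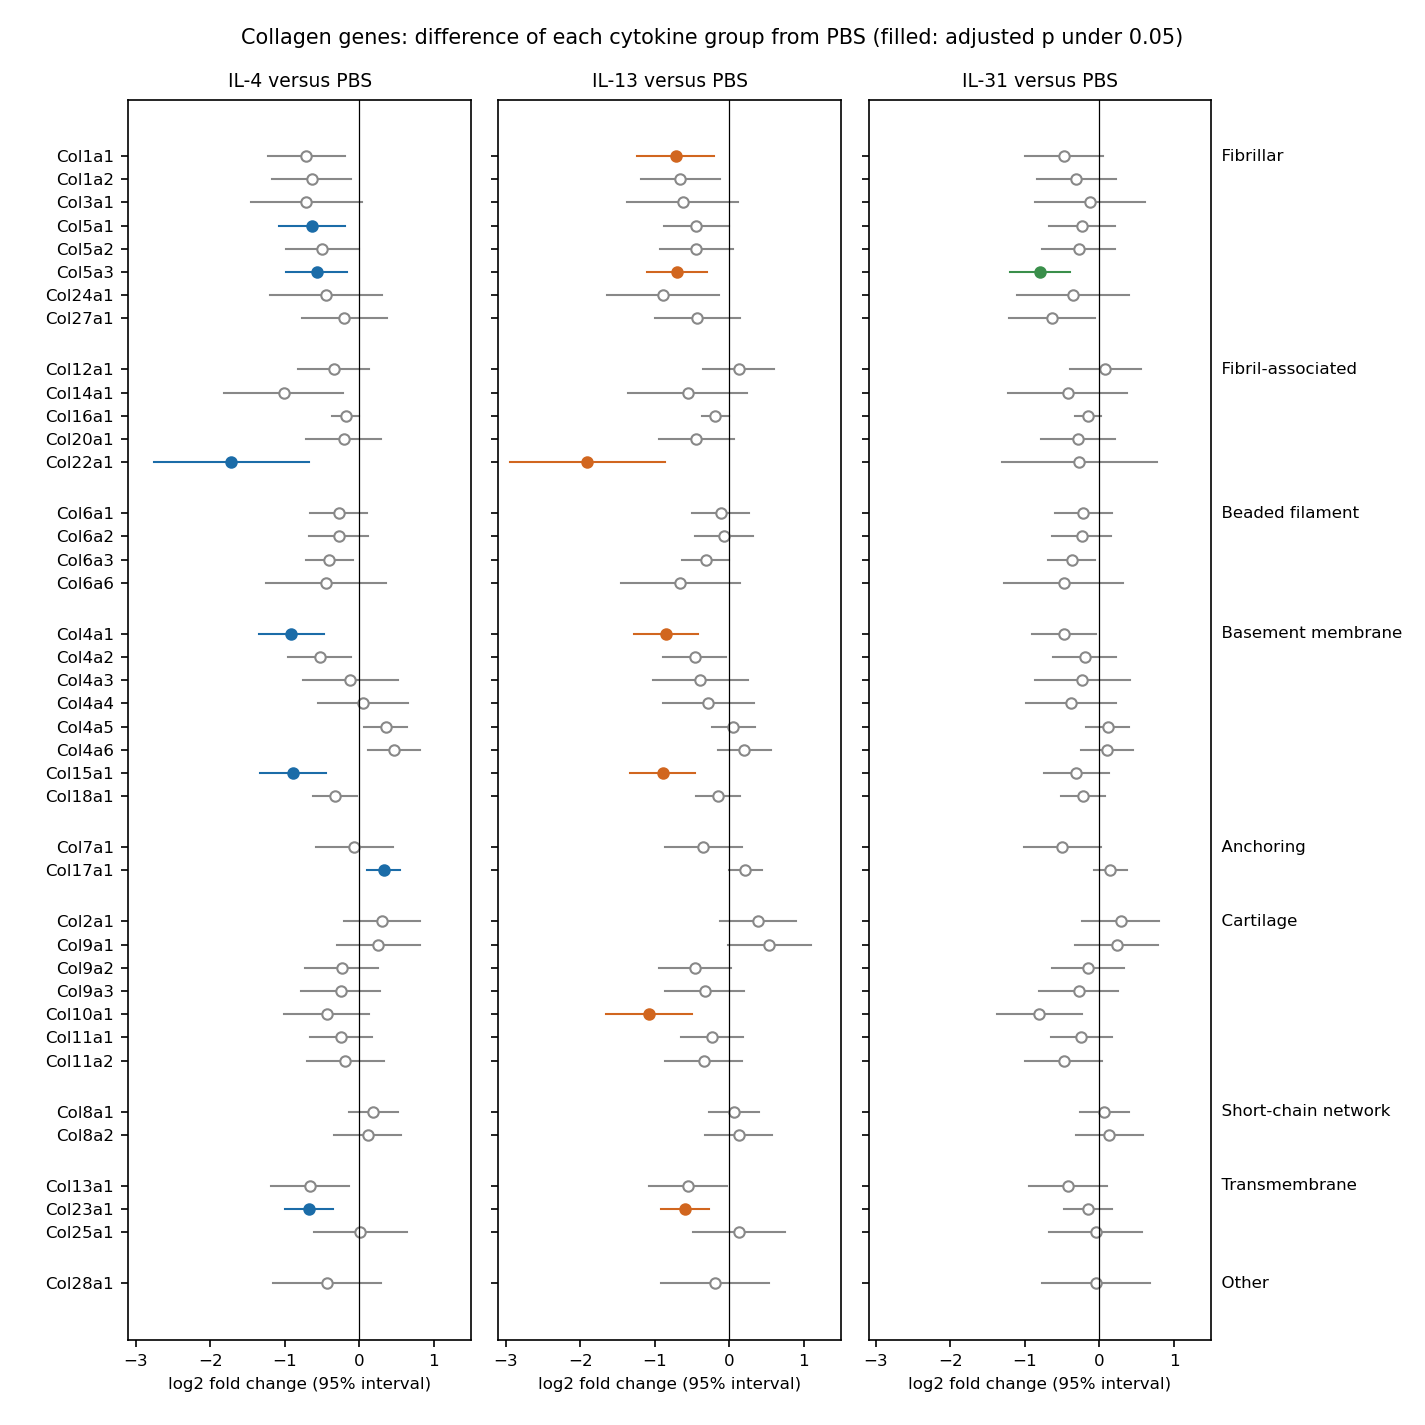
Log2 fold change of each of the 40 tested collagen genes in IL-4, IL-13 and IL-31 against PBS, with its 95% interval, by structural class. Filled points have an adjusted p under 0.05 in limma. All 8 fibrillar genes lie left of 0 in the 3 panels, and Col17a1 in IL-4 is the single filled point right of 0.

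Upstream DNA of members that carried these calls is shown so that their start regions can be compared. The RefSeq promoter table (GRCm38.p6) matched 32 of the 41 members, and the 250 bases before each RefSeq start were searched on both strands for 5 motifs. The first was TTC and GAA with any 4 bases between, a form bound by STAT6, which IL-4 and IL-13 activate. The second was TTC and GAA with any 3 bases between, the general STAT form. The others were CCAAT (the CCAAT box), TATAAA (the TATA box) and GGGCGG (the core of GC boxes). The 4-base form was in 0 of 32 members and in 5.9% of 32851 promoters, and the 3-base form in 1 of 32 (Col28a1) and in 7.0%. The CCAAT box was in 11 of 32 and 33.8%, the TATA box in 5 of 32 and 12.4%, and the GC box core in 19 of 32 and 32.7%. Median GC content was 60.4% in the members and 52.4% in all promoters. A match is a description of letters, and its absence says nothing of a factor's binding. Capitals mark these last 3 motifs on either strand, and all 4 sequences run 5′ to 3′ on the strand of their gene.
Col17a1, higher in IL-4 (chr19:47692043-47692292, minus strand): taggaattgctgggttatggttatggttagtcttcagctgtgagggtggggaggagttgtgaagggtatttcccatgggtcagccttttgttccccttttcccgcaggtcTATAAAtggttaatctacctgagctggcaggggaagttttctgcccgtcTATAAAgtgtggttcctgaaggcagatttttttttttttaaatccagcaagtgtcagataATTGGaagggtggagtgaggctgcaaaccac
Col5a3, lower in IL-4, IL-13 and IL-31 (chr9:20815068-20815317, minus strand): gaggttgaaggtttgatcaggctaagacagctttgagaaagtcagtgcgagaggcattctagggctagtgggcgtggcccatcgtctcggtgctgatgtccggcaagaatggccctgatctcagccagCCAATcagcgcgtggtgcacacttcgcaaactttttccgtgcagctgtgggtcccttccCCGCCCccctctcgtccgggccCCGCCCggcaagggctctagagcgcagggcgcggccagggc
Col15a1, lower in IL-4 and IL-13 (chr4:47207762-47208011, plus strand): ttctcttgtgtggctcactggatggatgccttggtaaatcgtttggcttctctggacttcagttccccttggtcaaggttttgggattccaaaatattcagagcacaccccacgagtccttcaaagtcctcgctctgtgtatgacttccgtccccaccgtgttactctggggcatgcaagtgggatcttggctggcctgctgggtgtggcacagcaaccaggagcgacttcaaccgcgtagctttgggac
Col23a1, lower in IL-4 and IL-13 (chr11:51289670-51289919, plus strand): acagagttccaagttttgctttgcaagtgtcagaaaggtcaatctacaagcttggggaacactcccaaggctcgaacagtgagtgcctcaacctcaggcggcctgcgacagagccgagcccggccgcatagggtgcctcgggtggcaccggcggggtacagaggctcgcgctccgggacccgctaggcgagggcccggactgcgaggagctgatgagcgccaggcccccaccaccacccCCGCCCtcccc
The Col17a1 stretch has 46.0% GC with the TATA box letters at 2 places and the CCAAT box at 1. The Col5a3 stretch has 62.8% GC with the GC box core at 2 places and the CCAAT box at 1. The Col15a1 stretch holds none of the 5 motifs, and the Col23a1 stretch holds the GC box core at 1 place. RefSeq and GENCODE place the starts of Col17a1 and Col15a1 differently. Part of the Col17a1 stretch, its CCAAT match included, lies inside the GENCODE gene, which starts at 47692094 on the minus strand. The Col15a1 stretch ends at 47208011, short of the GENCODE start at 47208161.

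Fibrillar collagens had lower means in all 3 cytokine groups. All 8 had a mean below that of PBS in each, with a median log2 fold change of -0.60 in IL-4, -0.64 in IL-13 and -0.34 in IL-31. The test was passed by 2 of 8 in IL-4 (Col5a1 and Col5a3), 2 in IL-13 (Col1a1 and Col5a3) and 1 in IL-31 (Col5a3). Of all genes, 17.8% were called in IL-4, 19.7% in IL-13 and 6.38% in IL-31. Col5a3 (ENSMUSG00000004098, chr9:20770050-20815067, minus strand of GRCm38) encodes a chain of collagen V, which sets the width of collagen I fibrils. The IL-4 libraries had Col5a3 at 5.62, 5.22, 5.37, 4.95 and 5.13 log2 CPM. The values were 5.31, 5.65, 4.97, 4.94 and 4.79 in IL-13 and 5.30, 4.90, 5.00, 4.70 and 5.26 in IL-31, against 5.85, 6.10, 6.31, 5.74 and 5.17 in PBS. All PBS libraries but library 5 lay above every cytokine library, and PBS library 5 lay within their range, so the groups overlapped. Against PBS the log2 fold change was -0.57 in IL-4 (adjusted p = 0.0457 in limma), -0.70 in IL-13 (adjusted p = 0.016) and -0.80 in IL-31 (adjusted p = 0.0244), each with an SE of 0.19. The IL-31 call was lost in 6 of the 20 fits that left out 1 library each (IL-31 library 3, 4 or 5, PBS library 1, 2 or 3), and the IL-4 call in 12 of the 20, with the log2 fold change between -0.97 and -0.68 in IL-31 and between -0.74 and -0.45 in IL-4. The IL-13 call held in all 20. With the suprabasal covariate all 3 ended, at -0.14 in IL-4, -0.16 in IL-13 and -0.29 in IL-31 (adjusted p = 0.607, 0.666 and 0.589).

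Col1a1 (ENSMUSG00000001506, chr11:94936224-94953042, plus strand of GRCm38) had a wide spread in PBS. In log2 CPM, Col1a1 stood at 10.10, 9.62, 10.25, 9.67 and 10.20 in the 5 IL-4 libraries. It stood at 10.23, 9.52, 9.73, 10.08 and 10.20 in IL-13 and 10.36, 10.46, 10.57, 9.31 and 10.27 in IL-31, against 10.06, 10.73, 10.35, 10.77 and 11.46 in PBS. PBS library 5 was highest and IL-31 library 4 lowest of the 20, and PBS library 1 lay below 3 of the 5 IL-13 libraries. For Col1a1, limma gave log2 fold changes of -0.71, -0.72 and -0.48 in IL-4, IL-13 and IL-31 against PBS (SE 0.25 each, adjusted p = 0.0545, 0.0467 and 0.247). In IL-13 the call was lost in 15 of the 20 fits without 1 library, the log2 fold change lying between -0.88 and -0.53, and with the suprabasal covariate (-1.10, adjusted p = 0.0694), which gave a call in IL-4 (-1.01, adjusted p = 0.0292). Col3a1 spread still more. Col3a1 was at 9.85, 9.75, 10.63, 9.81 and 10.23 log2 CPM in IL-4 libraries 1 to 5. It was at 10.50, 9.59, 9.76, 10.31 and 10.53 in IL-13 and at 10.87, 10.88, 10.80, 9.70 and 10.93 in IL-31, against 9.71, 11.22, 9.81, 11.22 and 11.86 in PBS. PBS libraries 2, 4 and 5 lay above all 15 cytokine libraries, while PBS libraries 1 and 3 lay among the lowest. The log2 fold change of Col3a1 was -0.71 in IL-4, -0.63 in IL-13 and -0.13 in IL-31 (SE 0.35 each), with adjusted p = 0.179, 0.224 and 0.848 in limma. With PBS libraries 1, 2 and 3 left out, Col1a1, Col1a2 and Col3a1 passed the test in IL-4 (log2 fold changes -1.15, -1.11 and -1.49, adjusted p = 0.0316, 0.0318 and 0.02) and in IL-13 (-1.16, -1.13 and -1.40, adjusted p = 0.047, 0.0466 and 0.0387), while Col5a3 did not (adjusted p = 0.631 in IL-4, 0.472 in IL-13 and 0.682 in IL-31). Only PBS libraries 4 and 5 stood for PBS in that fit.

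Col5a1 (ENSMUSG00000026837, chr2:27886425-28039514, plus strand of GRCm38), the main chain of collagen V, fell in IL-4. The IL-4 libraries had Col5a1 at 6.65, 6.21, 7.01, 6.59 and 6.73 log2 CPM. The values were 7.12, 6.76, 6.49, 6.71 and 7.04 in IL-13 and 7.17, 7.18, 7.37, 6.25 and 7.20 in IL-31, against 6.80, 7.45, 6.83, 7.49 and 7.76 in PBS. IL-4 library 3 lay above PBS libraries 1 and 3, so the groups overlapped. Against PBS the log2 fold change was -0.63 in IL-4 (adjusted p = 0.045 in limma), -0.44 in IL-13 (adjusted p = 0.149) and -0.23 in IL-31 (adjusted p = 0.507), each with an SE of 0.21. The IL-4 call was lost in 12 of the 20 fits without 1 library, and its log2 fold change was between -0.75 and -0.51 in them. It held without PBS libraries 1, 2 and 3 (-0.99, adjusted p = 0.0288). The remaining fibrillar members, Col1a2, Col5a2, Col24a1 and Col27a1, had log2 fold changes of -0.89 to -0.20 and did not pass in any of the 3 comparisons.

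Some fibroblast markers were also lower. Of 9 (Pdgfra, Dpt, Dcn, Lum, Thy1, Twist2, Fap, Mfap5 and Pi16), 4 fell in IL-4, 2 in IL-13 and 0 in IL-31 (limma, 8, 4 and 0 at an unadjusted p under 0.05), with medians of -0.64, -0.45 and -0.03 on the log2 scale. Their summed level was 924.3 to 1357 CPM in IL-4, 881.5 to 1516 in IL-13, 1346 to 1881 in IL-31 and 1068 to 2070 in PBS, and none was at the lowest value in any library. Over all genes, 9.63, 9.8 and 1.2% were called lower in IL-4, IL-13 and IL-31. Those at an unadjusted p under 0.05 in limma were 31.5, 33.7 and 23.8%. The counts lower of the fibroblast markers were 6, 1 and 0 without PBS libraries 1, 2 and 3. The part of fibroblasts in the fibrillar differences was not tested.

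Lists of other cell types also shifted beside the collagen genes. Of 7 macrophage markers, 3 fell in IL-4 (C1qa, C1qb and Cd68), 2 in IL-13 (C1qa and C1qb) and 0 in IL-31 (limma, 4, 2 and 0 at an unadjusted p under 0.05), with medians of -0.65, -0.51 and -0.15 and sums of 151.8 to 230.2 CPM in IL-4, 151.5 to 255.4 in IL-13, 174.7 to 354.7 in IL-31 and 144.9 to 577.3 in PBS. Of 6 adipocyte markers, 0 were called in IL-4, 2 fell in IL-13 (Fabp4 and Pnpla2) and 0 were called in IL-31 (limma, 4, 5 and 0 at an unadjusted p under 0.05), with medians of -0.96, -1.28 and -0.39 and sums of 128.0 to 346.9 CPM in IL-4, 100.3 to 245.4 in IL-13, 175.3 to 324.0 in IL-31 and 183.0 to 569.4 in PBS. No macrophage or adipocyte marker was at the lowest value in any library. The all-gene shares called lower were 9.63, 9.8 and 1.2%, and those at an unadjusted p under 0.05 in limma 31.5, 33.7 and 23.8%. Of 4 tested hair follicle keratins, Krt25, Krt35 and Krt71 fell in IL-4 and IL-13, and Krt35 and Krt71 in IL-31, and the list summed to 0.327 to 5.523 CPM in IL-4, 0.435 to 3.771 in IL-13, 0.209 to 3.877 in IL-31 and 0.351 to 231.9 in PBS. PBS libraries 5 and 2 had the highest hair follicle scores, at 6.06 and 4.51, PBS library 4 was at -1.65, and each of the 4 keratins was at the lowest value in at least 1 library. Macrophage markers gave 6, 2 and 0 lower without PBS libraries 1, 2 and 3, and adipocyte and hair follicle markers then gave 0 calls in the 3 comparisons. The 9 neutrophil, 6 Schwann cell and 4 myofibroblast markers tested gave 0 calls with all libraries in the fit (limma, at most 2 of a list at an unadjusted p under 0.05). The part of these cell types in the collagen differences was not tested.

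**Figure D3:**
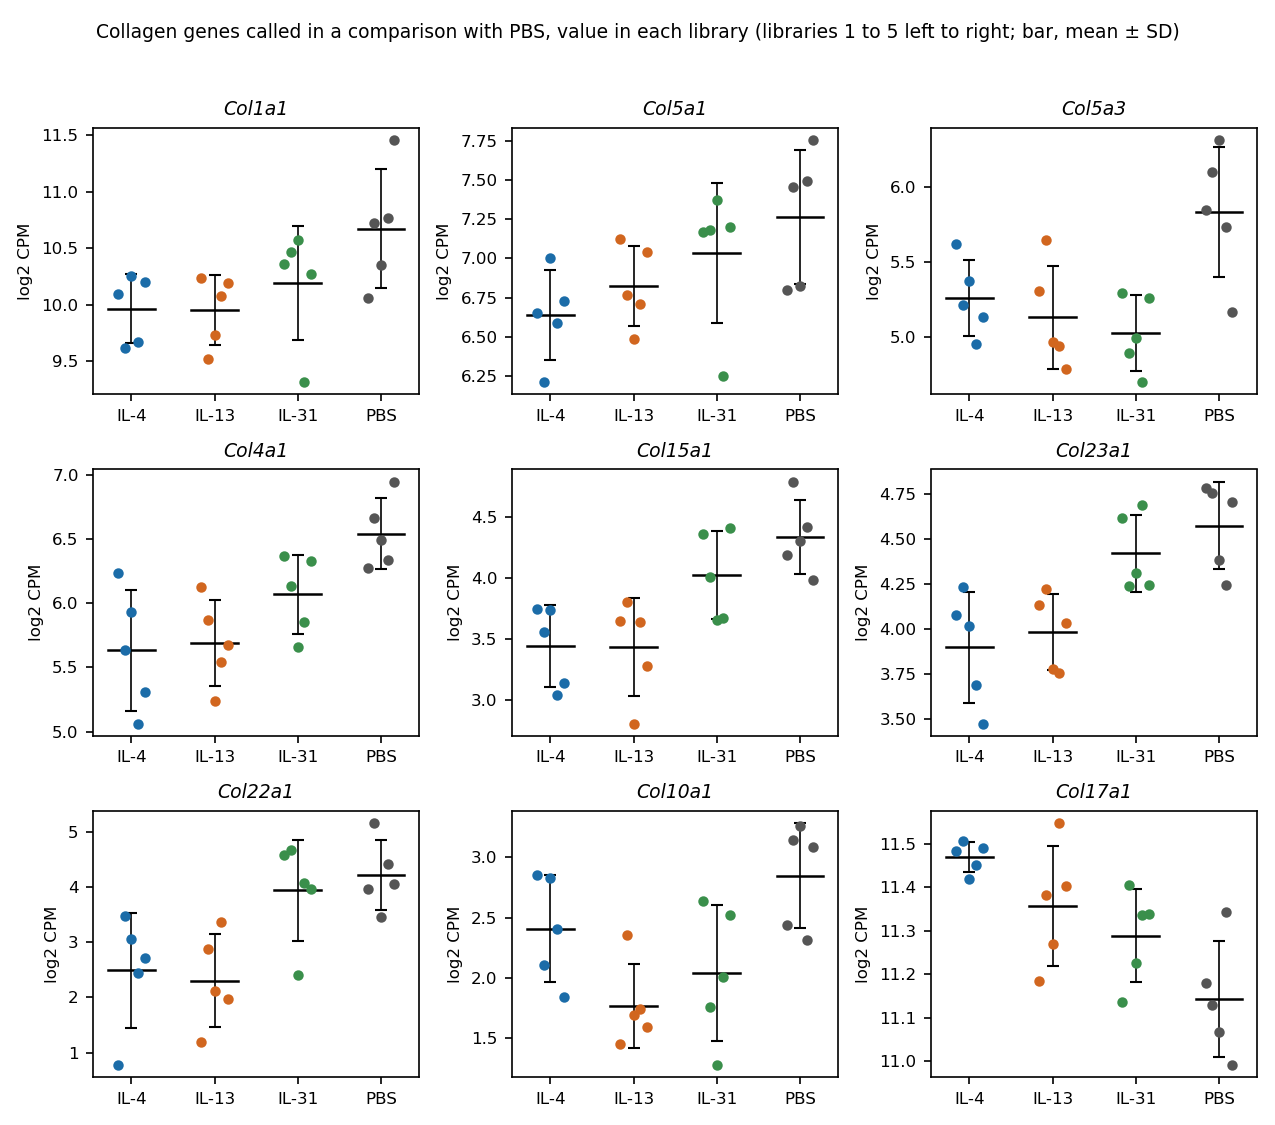
Log2 CPM of the 9 collagen genes called in at least 1 comparison with PBS, in each library of IL-4, IL-13, IL-31 and PBS, with group mean and SD (n = 5). Col4a1, Col15a1 and Col23a1 in IL-4 and IL-13 lie wholly below PBS, and Col17a1 in IL-4 lies wholly above it.

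Basement membrane collagens split by chain. Of 8 members, Col4a1 and Col15a1 fell in IL-4 and in IL-13, none passed the test in IL-31 (limma, 1 at an unadjusted p under 0.05), and the median log2 fold change was -0.23, -0.34 and -0.23. Col4a1 (ENSMUSG00000031502, chr8:11198423-11312826, minus strand of GRCm38) pairs with Col4a2 in the network of most basement membranes, those of vessels included. In log2 CPM, Col4a1 stood at 6.24, 5.63, 5.93, 5.06 and 5.31 in the 5 IL-4 libraries. It stood at 6.12, 5.87, 5.23, 5.54 and 5.68 in IL-13 and 6.37, 6.14, 5.66, 5.85 and 6.33 in IL-31, against 6.27, 6.67, 6.49, 6.33 and 6.95 in PBS. Every IL-4 and IL-13 library lay below every PBS library, and IL-31 overlapped PBS. For Col4a1, limma gave log2 fold changes of -0.91, -0.85 and -0.47 in IL-4, IL-13 and IL-31 against PBS (SE 0.21 each, adjusted p = 0.00619, 0.00808 and 0.17). Both calls held in all 20 fits without 1 library. Without PBS libraries 1, 2 and 3 the IL-4 call held (adjusted p = 0.0428) and the IL-13 call did not (adjusted p = 0.0722), and the same was so with the suprabasal covariate (adjusted p = 0.0495 in IL-4 and 0.163 in IL-13).

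Col15a1 (ENSMUSG00000028339, chr4:47208161-47313167, plus strand of GRCm38) encodes collagen XV, found beside capillary and muscle basement membranes. Col15a1 was at 3.75, 3.56, 3.74, 3.04 and 3.14 log2 CPM in IL-4 libraries 1 to 5. It was at 3.65, 3.80, 2.81, 3.64 and 3.28 in IL-13 and at 4.36, 4.00, 3.66, 3.67 and 4.41 in IL-31, against 4.18, 4.79, 4.30, 4.42 and 3.98 in PBS. As with Col4a1, no IL-4 or IL-13 library reached the lowest PBS library, and IL-31 overlapped PBS. The log2 fold change of Col15a1 was -0.89 in IL-4, -0.90 in IL-13 and -0.31 in IL-31 (SE 0.21 each), with adjusted p = 0.00775, 0.00669 and 0.364 in limma. Both calls held in all 20 fits without 1 library and were lost without PBS libraries 1, 2 and 3 (-0.76 and -0.77, adjusted p = 0.105 and 0.133) and with the suprabasal covariate (-0.58 and -0.52, adjusted p = 0.101 and 0.253).

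Col4a2 did not pass the test. The IL-4 libraries had Col4a2 at 6.22, 5.54, 5.98, 5.26 and 5.72 log2 CPM. The values were 6.16, 6.02, 5.38, 5.67 and 5.82 in IL-13 and 6.30, 6.18, 5.78, 5.74 and 6.38 in IL-31, against 5.61, 6.51, 6.28, 6.29 and 6.67 in PBS. PBS library 1 lay below 4 of the 5 IL-13 libraries. Against PBS the log2 fold change was -0.53 in IL-4 (adjusted p = 0.0751 in limma), -0.46 in IL-13 (adjusted p = 0.114) and -0.20 in IL-31 (adjusted p = 0.556), each with an SE of 0.20. Col4a1 and Col4a2 lie head to head on chromosome 8, and their annotated starts overlap by 22 bases, shown here because both genes start in it (chr8:11312805-11312826, read on the plus strand, GRCm38.p6).
Col4a1 and Col4a2 shared start: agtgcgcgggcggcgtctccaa
The counting is not stated to use strand, so reads over these bases could count for either gene.

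The epidermal pair went the other way in IL-4 without passing. Col4a5 and Col4a6, chains of epithelial basement membranes, had log2 fold changes of 0.35 and 0.47 in IL-4 (limma, adjusted p = 0.0816 and 0.0603), 0.05 and 0.20 in IL-13 and 0.11 and 0.10 in IL-31. Col4a6 lay at 5.98 to 6.19 log2 CPM in IL-4, above all 5 PBS libraries at 4.92 to 5.93, where PBS library 5 was lowest. With PBS libraries 1, 2 and 3 left out it passed in IL-4 (0.79, adjusted p = 0.0332). Col4a3, Col4a4 and Col18a1 did not pass in any comparison with PBS, with log2 fold changes of -0.39 to 0.05.

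Some endothelial markers were lower beside Col4a1 and Col15a1. Of 8 (Pecam1, Cdh5, Kdr, Tek, Emcn, Tie1, Vwf and Egfl7), 3 fell in IL-4 (Egfl7, Pecam1 and Tek), 5 in IL-13 (those 3, Kdr and Vwf) and 0 in IL-31 (limma, 7, 7 and 0 at an unadjusted p under 0.05), with medians of -0.61, -0.70 and -0.13. The list summed to 78.1 to 162.7 CPM in IL-4, 82.8 to 133.2 in IL-13, 140.4 to 188.6 in IL-31 and 147.2 to 217.9 in PBS, and none was at the lowest value in any library. Among all genes 9.63, 9.8 and 1.2% were called lower, and 31.5, 33.7 and 23.8% had an unadjusted p under 0.05 in limma. The counts lower of the endothelial markers were 2, 2 and 0 without PBS libraries 1, 2 and 3. The part of endothelium in the fall of Col4a1 and Col15a1 was not tested. Mural cell markers had 1 of 7 lower in IL-4 (Rgs5), 1 higher and 1 lower in IL-13 (Notch3 and Rgs5) and 0 in IL-31, where limma gave 1 at an unadjusted p under 0.05. They summed to 278.2 to 401.1 CPM in IL-4, 269.0 to 420.4 in IL-13, 310.8 to 352.0 in IL-31 and 333.5 to 430.9 in PBS.

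Other parts of the basement membrane also gave calls in IL-4 and IL-13. Of all genes, 9.63% were called lower in IL-4, 9.8% in IL-13 and 1.2% in IL-31. Of 11 laminin, nidogen and proteoglycan genes, 2 fell in IL-4, 3 in IL-13 and 0 in IL-31 (limma, 1 at an unadjusted p under 0.05), with medians of -0.36, -0.25 and -0.10. Hspg2, which encodes perlecan, had log2 fold changes of -0.50 ± 0.14 and -0.49 ± 0.14 (SE) in IL-4 and IL-13, with adjusted p = 0.0211 and 0.0228. Lamb2, the laminin β2 chain, had -0.44 ± 0.14 and -0.42 ± 0.14, with adjusted p = 0.0344 and 0.0403. Lama4, the laminin α4 chain of vessels, fell in IL-13 (-0.49 ± 0.17, adjusted p = 0.0439). Each of these calls was lost in 3 to 9 of the 20 fits without 1 library, PBS library 2 among those left out each time, and without PBS libraries 1, 2 and 3.

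Anchoring collagens did not move together. Col17a1 (ENSMUSG00000025064, chr19:47646344-47692094, minus strand of GRCm38), the hemidesmosomal collagen, was the single member that rose. In log2 CPM, Col17a1 stood at 11.48, 11.51, 11.42, 11.45 and 11.49 in the 5 IL-4 libraries. It stood at 11.19, 11.38, 11.27, 11.55 and 11.40 in IL-13 and 11.14, 11.40, 11.22, 11.34 and 11.34 in IL-31, against 11.18, 11.13, 11.07, 11.34 and 10.99 in PBS. The 5 IL-4 libraries were tight and lay above all PBS libraries, and IL-13 and IL-31 overlapped PBS. For Col17a1, limma gave log2 fold changes of 0.33, 0.21 and 0.15 in IL-4, IL-13 and IL-31 against PBS (SE 0.10 each, adjusted p = 0.0344, 0.152 and 0.394). Its call was lost without any 1 of the 5 IL-4 libraries and without PBS library 2, 3 or 5, the log2 fold change staying between 0.29 and 0.38. It also ended without PBS libraries 1, 2 and 3 (log2 fold change 0.30, adjusted p = 0.142), in a fit of the 2 groups alone (adjusted p = 0.163), with library quality weights (0.0643), with the neutrophil covariate (0.114), with quantile normalization (0.106) and after rescaling without muscle and mitochondrial genes (0.0967).

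Col7a1, the chain of anchoring fibrils, did not pass. Col7a1 was at 9.54, 9.39, 9.20, 9.25 and 9.05 log2 CPM in IL-4 libraries 1 to 5. It was at 8.69, 9.55, 8.69, 9.23 and 8.85 in IL-13 and at 8.75, 9.14, 8.90, 8.59 and 8.86 in IL-31, against 9.79, 9.60, 9.89, 9.34 and 8.13 in PBS. PBS library 5 was the lowest of the 20, and PBS libraries 1 and 3 were the highest. The log2 fold change of Col7a1 was -0.07 in IL-4, -0.35 in IL-13 and -0.50 in IL-31 (SE 0.25 each), with adjusted p = 0.886, 0.339 and 0.222 in limma. Its direction depended on the PBS libraries, with log2 fold changes of 0.55 in IL-4, 0.27 in IL-13 and 0.11 in IL-31 once PBS libraries 1, 2 and 3 were left out.

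Among 8 hemidesmosome and anchoring partners, 2 rose in IL-4 and 0 in IL-13 or IL-31 (limma, 3, 0 and 1 at an unadjusted p under 0.05). Lamb3, a chain of the laminin that collagen VII anchors, had a log2 fold change of 0.34 ± 0.09 (SE, adjusted p = 0.0107), and Dst, which encodes the hemidesmosomal plakin dystonin, had 0.47 ± 0.15 (adjusted p = 0.0318). Basal keratinocyte markers had 2 of 6 higher in IL-4 (Lamb3, in both lists, and Trp63), 1 in IL-13 and 1 in IL-31 (Trp63 in both). They summed to 23600 to 29320 CPM in IL-4, 26200 to 36130 in IL-13, 23150 to 28670 in IL-31 and 21080 to 26920 in PBS. Suprabasal markers had 6, 7 and 7 of 10 higher, with sums of 29530 to 52330, 30780 to 72730 and 44820 to 69150 CPM, against 7197 to 44340 in PBS. The suprabasal list itself sets PBS libraries 1, 2 and 3 apart, so a fit without them cannot judge its calls. In that fit 0 suprabasal and 0 basal markers were called in the 3 comparisons, beside 7.29, 2.34 and 0% of all genes. The calls of Lamb3 and Dst in IL-4 also ended (adjusted p = 0.101 and 0.172). No marker of the 2 lists was at the lowest value in any library, and their part in the rise of Col17a1 was not tested.

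Among cartilage collagens, 1 member passed the test. Of 7 members, 0 passed in IL-4, 1 in IL-13 (Col10a1, lower) and 0 in IL-31, and at an unadjusted p under 0.05 limma gave 0, 1 and 1. With 7 genes, these counts do not set the class apart from the 17.8, 19.7 and 6.38% of all genes called. The class median was -0.24, -0.33 and -0.24 on the log2 scale. Col10a1 (ENSMUSG00000039462, chr10:34389981-34397085, plus strand of GRCm38) encodes the collagen of hypertrophic chondrocytes. The IL-4 libraries had Col10a1 at 2.85, 2.11, 2.83, 2.41 and 1.84 log2 CPM. The values were 1.45, 2.35, 1.69, 1.74 and 1.60 in IL-13 and 2.64, 1.76, 1.28, 2.01 and 2.52 in IL-31, against 2.44, 3.15, 3.26, 2.31 and 3.08 in PBS. IL-13 library 2 lay above PBS library 4, so IL-13 and PBS just overlapped. Against PBS the log2 fold change was -0.44 in IL-4 (adjusted p = 0.298 in limma), -1.08 in IL-13 (adjusted p = 0.0108) and -0.81 in IL-31 (adjusted p = 0.0849), each with an SE of 0.28. The IL-13 call held in all 20 fits without 1 library and was lost without PBS libraries 1, 2 and 3 (-0.93, adjusted p = 0.168) and with the suprabasal covariate (-0.67, adjusted p = 0.288).

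Col2a1, the defining cartilage collagen, was not called. In log2 CPM, Col2a1 stood at 4.10, 3.22, 3.88, 3.43 and 4.10 in the 5 IL-4 libraries. It stood at 4.25, 3.50, 3.57, 4.00 and 3.78 in IL-13 and 3.94, 3.31, 4.40, 3.35 and 3.63 in IL-31, against 2.80, 3.15, 3.52, 3.82 and 3.93 in PBS. All 4 groups overlapped. For Col2a1, limma gave log2 fold changes of 0.30, 0.38 and 0.28 in IL-4, IL-13 and IL-31 against PBS (SE 0.24 each, adjusted p = 0.432, 0.288 and 0.485). The direction turned when PBS libraries 1, 2 and 3 were left out, to -0.13, -0.05 and -0.15. Col11a1, which seeds collagen II fibrils, had log2 fold changes of -0.24 in IL-4, -0.23 in IL-13 and -0.24 in IL-31, with adjusted p = 0.442, 0.431 and 0.461. Its 95% intervals were -0.66 to 0.17, -0.65 to 0.18 and -0.66 to 0.17, so a fall of up to that size was within them. Of 9 chondrocyte markers that passed the filter, 0 were called by limma in any of the 3 comparisons (1, 0 and 0 at an unadjusted p under 0.05), with medians of 0.05, 0.08 and 0.06 and sums of 293.0 to 459.3 CPM in IL-4, 242.4 to 468.0 in IL-13, 273.8 to 371.3 in IL-31 and 277.7 to 465.6 in PBS. The 11 tested cartilage partners, 9 of which are those markers, also gave 0 calls and 1, 0 and 0 at an unadjusted p under 0.05. Without PBS libraries 1, 2 and 3, each of these 2 lists had 1 gene called lower in IL-4. With the suprabasal covariate each had 1 called higher in IL-4.

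**Figure D4:**
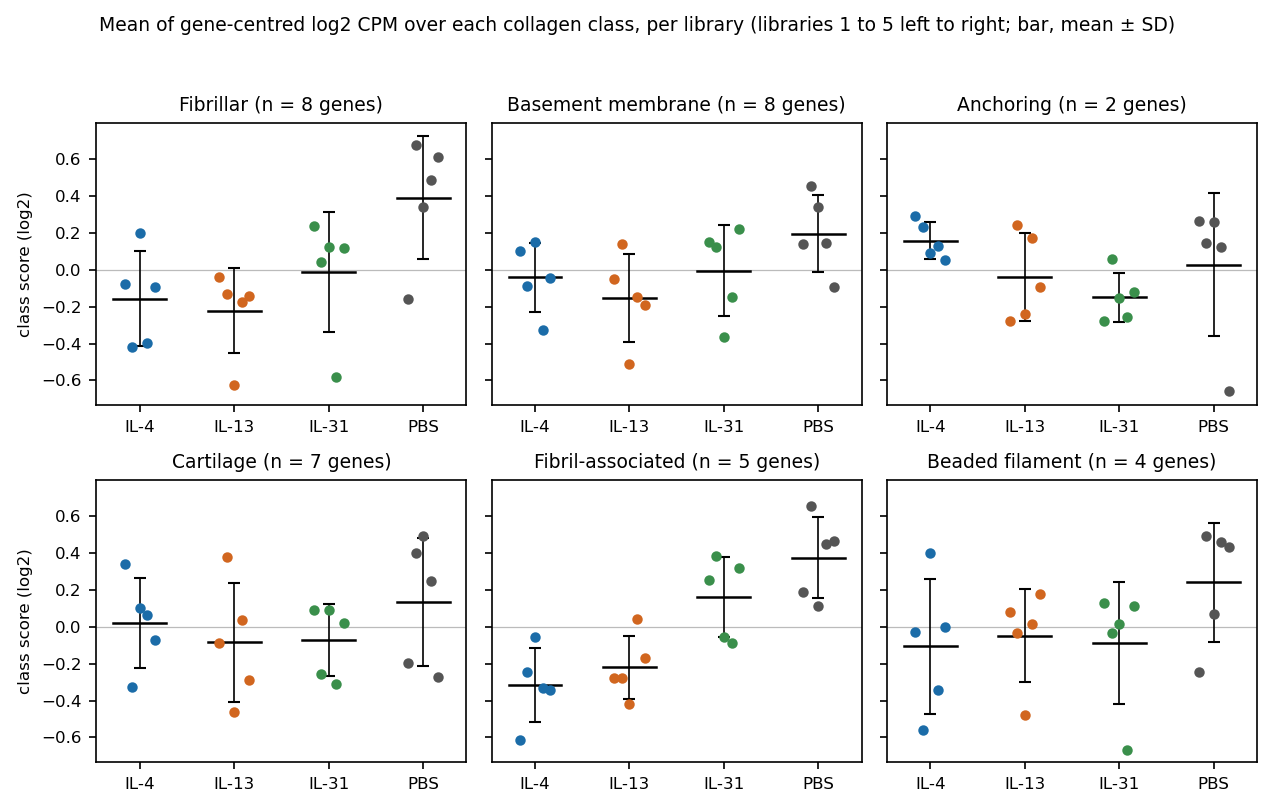
Class score (mean over the class of log2 CPM centred per gene) in each library of IL-4, IL-13, IL-31 and PBS for 6 collagen classes, with group mean and SD (n = 5). The mean score is highest in PBS in each class shown except anchoring, where it is highest in IL-4. PBS library 5 sits lowest of all in the anchoring class at -0.66.

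Class scores, given as a description, separate the classes by library. The fibrillar score was -0.42 to 0.20 in IL-4, -0.62 to -0.04 in IL-13, -0.58 to 0.24 in IL-31 and -0.16 to 0.68 in PBS. PBS libraries 2 to 5 lay at 0.34 or higher, and only PBS library 1 lay below 0. The cartilage score was -0.33 to 0.34 in IL-4, -0.46 to 0.38 in IL-13, -0.31 to 0.09 in IL-31 and -0.27 to 0.49 in PBS, with full overlap. IL-31 library 4 had the lowest fibrillar score of its group and the lowest beaded filament score of all, at -0.67.

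Col22a1 showed the largest difference of any member. Col22a1 (ENSMUSG00000079022, chr15:71795795-72034227, minus strand of GRCm38) is a fibril-associated collagen known from tissue junctions, the myotendinous junction among them. Col22a1 was at 0.77, 3.48, 3.06, 2.45 and 2.71 log2 CPM in IL-4 libraries 1 to 5. It was at 1.19, 2.88, 2.11, 3.37 and 1.97 in IL-13 and at 4.58, 4.67, 2.40, 4.08 and 3.97 in IL-31, against 3.97, 5.16, 3.45, 4.42 and 4.05 in PBS. IL-13 lay wholly below PBS, and in IL-4 only library 2 reached above the lowest PBS library. The log2 fold change of Col22a1 was -1.72 in IL-4, -1.91 in IL-13 and -0.27 in IL-31 (SE 0.50 each), with adjusted p = 0.023, 0.0122 and 0.761 in limma. The IL-4 call was lost without IL-4 library 1 or PBS library 2, and the IL-13 call held in all 20 fits without 1 library. Both were lost without PBS libraries 1, 2 and 3 (adjusted p = 0.116 and 0.111), at -1.74 and -1.93, and with the suprabasal covariate (adjusted p = 0.0799 and 0.125), at -1.69 and -1.87.

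Skeletal muscle markers fell beside it. All 12 (Ckm, Acta1, Myh4, Myh1, Tnnt3, Tnni2, Mylpf, Atp2a1, Pvalb, Actn3, Myoz1 and Pygm) fell in IL-4 and in IL-13 and 0 were called in IL-31 (limma, 2 at an unadjusted p under 0.05), with medians of -2.95, -3.01 and -1.10. They summed to 436.3 to 3872 CPM in IL-4, 983.4 to 4115 in IL-13, 2008 to 9057 in IL-31 and 6829 to 20580 in PBS, and none was at the lowest value in any library. Without PBS libraries 1, 2 and 3 the counts lower were 12, 3 and 0, beside 7.29, 2.34 and 0% of all genes called. With the suprabasal covariate they were 12, 0 and 0, beside 11.7, 0.0425 and 0%. IL-4 library 1 had the lowest Col22a1 value and the lowest muscle score (-3.27) of the 20. IL-31 library 3 had both the lowest Col22a1 value and the lowest muscle score (-0.68) of its group, as did PBS library 3 (3.45 log2 CPM and 0.995). In IL-13 the lowest Col22a1 value was in library 1 (1.19 log2 CPM) and the lowest muscle score in library 3 (-2.17). The part of muscle in the Col22a1 result was not tested.

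The other fibril-associated members did not pass. Col14a1, which binds fibril surfaces, had -1.01 ± 0.38 (SE) in IL-4 (adjusted p = 0.0731), -0.56 in IL-13 and -0.42 in IL-31. Col16a1 varied least, at 7.08 to 7.19 log2 CPM in IL-4, 6.87 to 7.24 in IL-13, 6.90 to 7.35 in IL-31 and 7.16 to 7.41 in PBS. Col12a1 and Col20a1 lay between -0.44 and 0.13 on the log2 scale.

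Col23a1 (ENSMUSG00000063564, chr11:51289920-51583918, plus strand of GRCm38), a transmembrane collagen, fell in IL-4 and IL-13. The IL-4 libraries had Col23a1 at 4.08, 4.23, 4.01, 3.69 and 3.47 log2 CPM. The values were 4.14, 4.22, 3.78, 3.76 and 4.04 in IL-13 and 4.62, 4.24, 4.31, 4.69 and 4.25 in IL-31, against 4.79, 4.76, 4.38, 4.25 and 4.71 in PBS. Both lay wholly below PBS by a narrow margin, and both also lay below all IL-31 libraries. Against PBS the log2 fold change was -0.68 in IL-4 (adjusted p = 0.00615 in limma), -0.59 in IL-13 (adjusted p = 0.0118) and -0.15 in IL-31 (adjusted p = 0.544), each with an SE of 0.15. Both calls held in all 20 fits without 1 library and were lost without PBS libraries 1, 2 and 3 (adjusted p = 0.092 and 0.193) and with the suprabasal covariate (0.0515 and 0.214). Col13a1, another transmembrane member, had -0.66 ± 0.25 and -0.55 ± 0.25 (SE) in IL-4 and IL-13 (adjusted p = 0.073 and 0.127), and Col25a1 lay between -0.05 and 0.13.

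Beaded filament and short-chain network genes gave 0 calls in the 3 comparisons with PBS. At an unadjusted p under 0.05 limma gave 1, 1 and 1 of 4 beaded filament genes and 0, 0 and 0 of 2 network genes. All 4 beaded filament genes had means below PBS, with class medians of -0.34, -0.22 and -0.31. In log2 CPM, Col6a1 stood at 8.22, 7.60, 8.38, 7.97 and 8.25 in the 5 IL-4 libraries. It stood at 8.54, 8.28, 7.83, 8.18 and 8.39 in IL-13 and 8.31, 8.15, 8.28, 7.59 and 8.35 in IL-31, against 7.83, 8.42, 8.25, 8.53 and 8.77 in PBS. For Col6a1, limma gave log2 fold changes of -0.27, -0.11 and -0.22 in IL-4, IL-13 and IL-31 against PBS (SE 0.18 each, adjusted p = 0.332, 0.698 and 0.466). Col8a1 and Col8a2 had log2 fold changes of 0.06 to 0.19.

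Groups without overlap were counted apart from the test. A cytokine group and PBS did not overlap for 8.53% of all genes in IL-4 (2.64% higher and 5.89% lower), 7.52% in IL-13 (5.01% lower) and 4.36% in IL-31. Of the 40 members, 5 did so in IL-4 (Col4a1, Col15a1 and Col23a1 lower, Col4a6 and Col17a1 higher), 4 in IL-13 (Col4a1, Col15a1, Col22a1 and Col23a1, lower) and 0 in IL-31.

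Chains of one collagen tracked each other to different degrees. The difference Col1a1 minus Col1a2 had an SD of 0.11 over the 20 libraries, while the genes themselves had SDs of 0.49 and 0.48 on the log2 scale. Col6a1 minus Col6a2 had an SD of 0.08, beside 0.31 and 0.32. Col9a1 minus Col9a2, by contrast, had an SD of 0.59, above the 0.46 and 0.40 of the single genes. Col4a1 minus Col4a2 averaged -0.11 ± 0.20 in IL-4, -0.12 ± 0.05 in IL-13, -0.01 ± 0.09 in IL-31 and 0.27 ± 0.24 in PBS (SD, n = 5), and its PBS range of 0.04 to 0.66 overlapped IL-4 (-0.42 to 0.10) and IL-31 (-0.12 to 0.12) and lay above IL-13 (-0.15 to -0.04). These are differences of log2 CPM within a library, share its depth and were not tested.

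**Figure D5:**
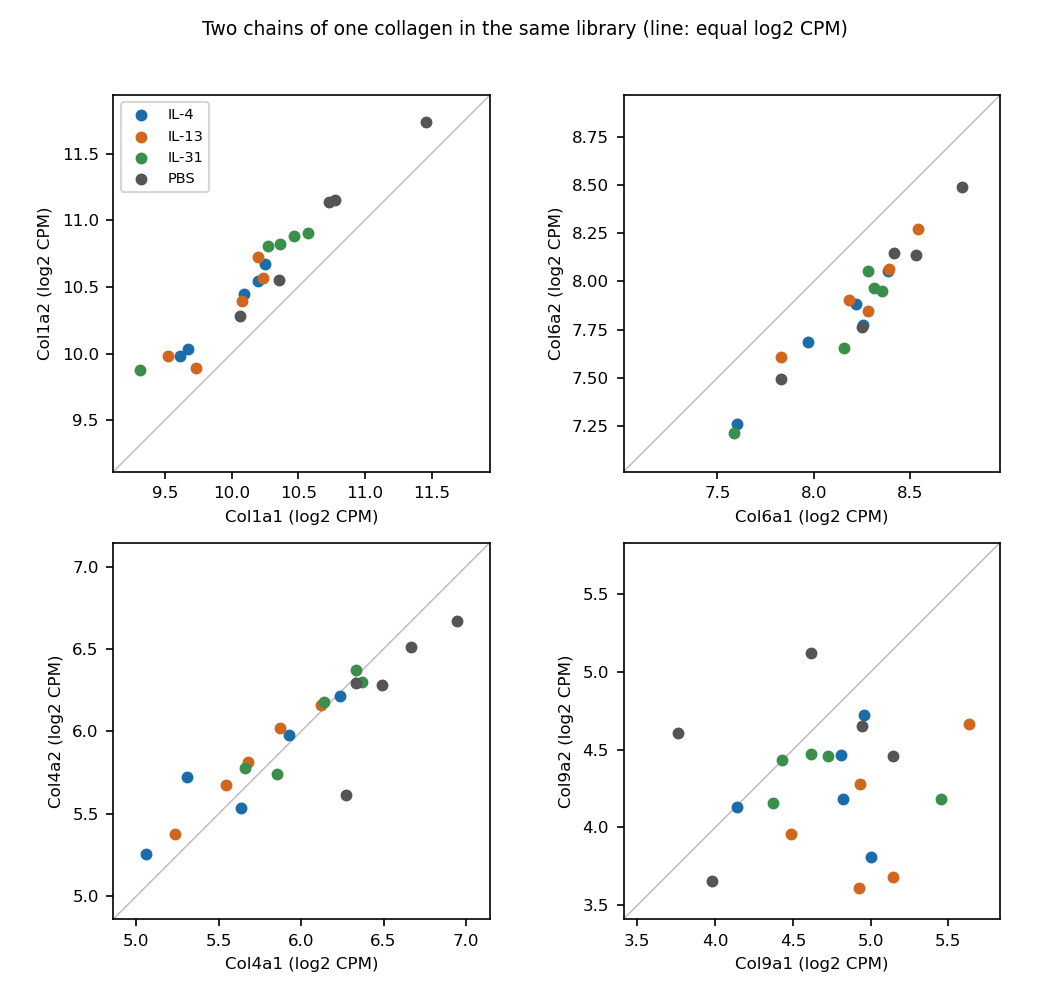
Log2 CPM of 2 chains of one collagen in each of the 20 libraries (IL-4, IL-13, IL-31 and PBS by colour), for Col1a1 and Col1a2, Col6a1 and Col6a2, Col4a1 and Col4a2, and Col9a1 and Col9a2. The first 2 pairs lie along a line parallel to that of equal values, and Col9a1 with Col9a2 scatters.

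No member was called between cytokines. In limma, 0 of 40 members and 0% of all 16461 genes passed in IL-4 against IL-13, IL-4 against IL-31 and IL-13 against IL-31. At an unadjusted p under 0.05 there were 2, 5 and 3 members, beside 4.03%, 10.6% and 7.29% of all genes. Col10a1 was 0.64 higher in IL-4 than in IL-13 and Col4a5 was 0.30 higher (log2). Col4a1, Col15a1, Col22a1 and Col23a1 were lower and Col4a6 was higher in IL-4 than in IL-31, and Col15a1, Col22a1 and Col23a1 were lower in IL-13 than in IL-31, none past the adjusted threshold. That Col15a1, Col22a1 and Col23a1 passed against PBS in IL-4 and IL-13 and not in IL-31 is therefore not a shown difference between the cytokines.

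Among genes that build collagen, more were called lower than higher. Of all genes, 8.22% were called higher and 9.63% lower in IL-4, 9.94% and 9.8% in IL-13, and 5.18% and 1.2% in IL-31. Of 20 genes of biosynthesis and secretion, 2 rose and 7 fell in IL-4, 2 rose and 5 fell in IL-13, and 1 fell in IL-31, with medians of -0.30, -0.29 and -0.18. Serpinh1, the collagen chaperone HSP47, had log2 fold changes of -0.65 ± 0.11, -0.59 ± 0.11 and -0.40 ± 0.11 (SE), with adjusted p = 0.00142, 0.00253 and 0.0393. Tmem38b, an ion channel of the endoplasmic reticulum needed for collagen assembly, had -0.72 ± 0.15 in IL-4 and -0.87 ± 0.15 in IL-13 (adjusted p = 0.00418 and 0.00187). Creb3l1, a transcription factor that acts on collagen I genes, had -0.67 ± 0.15 in IL-4 (adjusted p = 0.00611). P3h2 and P3h4, of the prolyl 3-hydroxylase family, were the 2 that rose, by 0.33 and 0.44 in IL-4 and 0.28 and 0.51 in IL-13. Serpinh1 in IL-31 was lost in 9 of the 20 fits without 1 library. Serpinh1 held without PBS libraries 1, 2 and 3 in IL-4 and IL-13 (adjusted p = 0.00929 and 0.0286) and Creb3l1 in IL-4 (0.0136). The calls of Tmem38b, P3h2 and P3h4 ended there, as did Serpinh1 in IL-31 (0.604). With the suprabasal covariate, 6 of the 20 genes were called lower in IL-4 and 0 in IL-13 and IL-31. All-gene shares called were then 11.7, 0.0425 and 0%. The IL-13 and IL-31 calls of this list, those of Serpinh1 included, thus ended with that covariate.

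Processing and cross-linking genes gave 1 higher and 4 lower of 13 in IL-4, 1 and 3 in IL-13, and 1 and 1 in IL-31. Bmp1, the procollagen C-proteinase, fell alike, with -0.36 ± 0.08 in IL-4, -0.36 ± 0.08 in IL-13 and -0.36 ± 0.08 in IL-31 (adjusted p = 0.0045, 0.00428 and 0.0198). Tll1, a proteinase of the same family, was the gene that rose, by 0.64, 0.48 and 0.57. Loxl1, a lysyl oxidase, had -1.02 ± 0.23 in IL-4 (adjusted p = 0.00615), and Sparc, a collagen-binding matricellular protein, had -0.71 ± 0.18 in IL-13 (adjusted p = 0.00989). In IL-31 the Bmp1 call was lost in 5 and the Tll1 call in 7 of the 20 fits without 1 library. With the suprabasal covariate, 1 of the 13 genes was called higher and 2 lower in IL-4, and 0 were called in IL-13 and IL-31. Without PBS libraries 1, 2 and 3 the Loxl1 call in IL-4 held (adjusted p = 0.03), and the calls of Bmp1, Tll1 and Sparc ended (Bmp1 at -0.20 in each comparison, adjusted p = 0.159, 0.216 and 0.65 in IL-4, IL-13 and IL-31).

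Of 9 tested collagen receptors, Ddr1 rose in IL-4 and IL-13 (0.29 and 0.31, adjusted p = 0.0429 and 0.0316) and Itga1, the α1 integrin chain, fell in IL-13 (-0.53, adjusted p = 0.0195), and none of these calls held without PBS libraries 1, 2 and 3. The 9 fibril-binding proteoglycans and the 6 collagen-cleaving enzymes gave 0 calls in each of the 3 comparisons. At an unadjusted p under 0.05 limma gave 2, 1 and 0 of the proteoglycans and 1, 0 and 0 of the enzymes. Without PBS libraries 1, 2 and 3, 4 proteoglycans and 1 enzyme were called lower in IL-4, beside 7.29% of all genes called. In that fit 0 of either list were called in IL-13 or IL-31. With the suprabasal covariate 1 proteoglycan was called lower in IL-4, and 0 enzymes.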

How the data were processed

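Bulk RNA-seq of mouse ear pinnae was analysed in 20 libraries, with groups taken from the treatment label. The deposited table holds log2 CPM values, computed by the authors, for 16669 Ensembl genes. The submitters' processing notes name GRCm38 and edgeR with no version. Aligner, counter and annotation release were not given in the sources used. The library kit was NEBNext Ultra II RNA, per the labels. The lowest value, -2.684, equals an offset of 0.1556 CPM on the log2 scale, and this offset makes fold changes of low genes too small. Between 77.4 and 88.2% of values below 8 reads were whole multiples of 1 step within 0.02 reads, so the steps gave only an estimate of depth, and a count test could not be used. Symbols matched 16644 of the identifiers, and 25 had none. Coordinates and transcript lengths came from GENCODE M21 and upstream sequence from RefSeq.

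From the deposited log2 values, genes at 0 or more in at least 5 libraries were kept (16461, with 208 removed). One limma 3.58.1 model (lmFit, eBayes with trend, in R 4.3.3) with 4 groups was fitted to all 20 libraries, and 6 comparisons were read from it. Tests are two-sided, and a gene is called at an adjusted p (Benjamini-Hochberg, all genes tested) under 0.05. A class score is the mean over tested members of log2 CPM centred per gene over the 20 libraries, and CPM sums and levels per kilobase had the offset removed. Named genes are the chains Col1a1, Col1a2, Col3a1, Col4a1, Col4a2, Col2a1, Col11a1, Col7a1, Col17a1 and Col6a1, every called member, and up to 3 called partners of smallest adjusted p per pathway list. Other genes are named where a count of 5 or fewer is spelled out or an extreme value is given, chosen after their values were seen. The members and lists were chosen with earlier results of these data known. Alternatives covered the filter, the offset, scaling, the samples in the fit, library weights, a replicate block, 2 covariates and left-out libraries. Python 3.11.15, numpy 2.4.6, pandas 2.3.3 and matplotlib 3.10.9 were used.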

Additional observations from a re-analysis of the deposited data

Results flagged for a closer look

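In 19 of 164 sets of 5 values (41 genes in 4 groups), 1 library lay far from the other 4, by a gap of more than 0.71 of the range. Chance flags about 1 in 20 such sets, or 8.2 of 164. IL-31 library 4 and PBS library 5 held 5 each.

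IL-31 library 4 was far below the rest of its group for Col1a1 (9.31 log2 CPM), Col1a2 (9.88), Col3a1 (9.70), Col5a1 (6.25) and Col6a1 (7.59). PBS library 5 was far above the other PBS libraries for Col12a1 (6.63), Col6a3 (8.27) and Col18a1 (7.12), and far below them for Col4a6 (4.92) and Col9a3 (5.28).

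IL-31 library 3 was low for Col4a3 (1.05) and Col4a4 (1.60). IL-4 library 1 was high for Col20a1 (3.09) and Col28a1 (3.30), IL-4 library 2 was low for Col9a1 (4.14) and Col25a1 (1.52), and IL-4 library 4 was low for Col18a1 (5.85). PBS library 1 was low for Col11a1 (4.74) and Col13a1 (0.66).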

How the results depend on the processing

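The counts of called members depended on the libraries and covariates more than on the filter or the offset. With no filter on low values, or with 1 CPM added before the log, they stayed at 7 in IL-4, 7 in IL-13 and 1 in IL-31. A fit of only the groups compared gave 4 in IL-4 (7.71% of all genes) and 0 in IL-31 (0%). Library quality weights gave 4 in IL-4 (17.4%) and 4 in IL-31 (10.1%). They also gave 2 in IL-4 against IL-31 (4.2%) and 2 in IL-13 against IL-31 (3.25%). An epidermal score as a covariate gave 10 in IL-4 (3 among the 7), 0 in IL-13 and 0 in IL-31, beside 11.7%, 0.0425% and 0% of all genes. A neutrophil score gave 13 in IL-13 (all 7 among them), beside 24.1% of all genes. Without PBS libraries 1, 2 and 3 there were 3 in IL-13 (2.34% of all genes) and 0 in IL-31 (0%). Leaving out 1 library gave 3 to 12 in IL-4, 6 to 12 in IL-13 and 0 to 6 in IL-31, and 0 to 1 in IL-13 against IL-31, where IL-31 library 3 was the one left out. Quantile normalization, and rescaling without muscle and mitochondrial genes, turned the IL-4 split to 0 higher and 8 lower, and median re-centring to 3 higher (Col4a5, Col4a6 and Col17a1) and 4 lower. Rescaling without muscle and mitochondrial genes also moved the all-gene median to -0.15 in IL-13 and -0.15 in IL-31. The cause of these shifts was not tested, and fits with libraries left out also had fewer libraries.

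Of 528 values for the 16 named collagens under 11 settings other than leaving out 1 library, 456 kept direction and side of the threshold, 43 lost their call, 17 gained one and 12 reversed. Col2a1 reversed without PBS libraries 1, 2 and 3 (-0.128, -0.051 and -0.148 in the 3 comparisons with PBS) and with the epidermal covariate in IL-31 (-0.044). Col7a1 reversed without those libraries (0.55, 0.27 and 0.11), with the epidermal covariate (0.54, 0.41 and 0.22), and in IL-4 with median re-centring (0.018) and without PBS library 1 (0.044) or 3 (0.070), leaving out 1 library giving -0.37 to 0.07. Col15a1 in IL-31 came to 0.051 with the epidermal covariate. In IL-31, Col3a1 came to 0.11 without IL-31 library 4 and 0.15 without PBS library 5 (range -0.39 to 0.15), and Col22a1 to 0.11 without IL-31 library 3 (range -0.46 to 0.11). None of these was called in either direction.

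Replicate numbers are shared between groups in the labels, and the values gave no clear sign that they pair the samples. Over 30 pairs with the same number, deviations from the group means correlated at -0.24 to 0.49 (median 0.04), and 10 pairs were over 0.1. Over 120 pairs with different numbers the range was -0.56 to 0.45 (median 0.02), and 44 pairs were over 0.1. Such correlations cannot show that the samples were unpaired. In 3 of 20 libraries the best match had its own number. With the replicate block there were 6 calls in IL-4, 7 in IL-13, 1 in IL-31 and 0 between cytokines, Col5a1 in IL-4 being the call lost (adjusted p = 0.0534). All-gene shares called against PBS were then 17.9% in IL-4, 19.8% in IL-13 and 7.58% in IL-31. Differences of low genes are limited by depth, and p-values by 5 libraries per group of unknown animal origin.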
